A study of Saccharomyces cerevisiae with 8 samples.

Results

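Transcripts of peroxisome assembly and of peroxisomal fatty acid oxidation were followed in RNA recovered with Upf1p, a helicase needed for nonsense-mediated decay of mRNA, in the budding yeast Saccharomyces cerevisiae. The members are all genes named PEX and a number in the platform's annotation, together with 6 matrix enzymes, 3 membrane transporters and 3 regulators of this pathway. They were found as 42 probe sets of 39 genes among 9275 tested probe sets, of which 6504 carry exactly 1 gene and cover 5656 genes. All 36 genes listed at the outset were present, and PEX9, PEX34 and PEX35 joined them by name. The study set 4 arrays of RNA bound with TAP-tagged Upf1p against 4 arrays of RNA from mock selections, numbered 1 to 4 as pairs. Cells of both groups grew in rich glucose medium (YEPD), and both extracts passed over IgG Sepharose and were released with TEV protease, which cuts the tag. The strain, and what the mock cells carried, are not given in the sources used here.

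Peroxisomes are small organelles that, in yeast, house the whole of fatty acid beta-oxidation. Their matrix proteins are made in the cytosol, bound by cycling receptors, carried through a docking complex in the membrane and released inside. The receptors are then tagged with ubiquitin by an enzyme cascade in the membrane and pulled out by AAA ATPases. Growth on oleate induces the oxidation enzymes and some PEX genes through the factors encoded by OAF1, PIP2 and ADR1, while glucose represses them, and the medium used here contains glucose. What an array reads is the composition of the RNA recovered, since equivalent amounts of RNA entered the last purification in both groups. Whole-extract RNA was not analysed here, so a ratio is between Upf1p-TAP and mock recovery and is not set against transcript abundance.

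The values are scaled intensities, in arbitrary units. A ratio is log2(intensity + 4.09) with Upf1p-TAP minus the same in the mock, averaged over the 4 pairs, and understates the change of dim transcripts. A gene was called higher or lower where limma's Benjamini-Hochberg adjusted p over all 9275 probe sets was below 0.05, two-sided, with the pair as a block. Array medians lay between 66.4 and 77.9 for Upf1p-TAP and between 58.7 and 67.5 for the mock. Pearson correlations of log2 intensity were 0.93 to 0.96 among Upf1p-TAP arrays, 0.95 to 0.96 among mock arrays and 0.88 to 0.92 between the groups. NAM7, the gene of the tagged protein, averaged 14.1 ± 6.24 with Upf1p-TAP and 50.5 ± 20.4 in the mock (SD, n = 4). It was lower, at -1.59 (SE 0.25, adjusted p = 0.00178). Centring each array on its median lowers every ratio, the median over all probe sets by 0.14, so ratios near 0 have no settled sign. The shift differed between pairs. Median log2(intensity + 4.09) was 6.14, 6.36, 6.15 and 6.22 on Upf1p-TAP arrays 1 to 4. On mock arrays 1 to 4 it was 6.02, 6.16, 6.16 and 5.96. A single pair's ratio near 0 has no settled sign either, above all in pair 4.

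Of the 39 genes, 13 were higher in the Upf1p-TAP selections and 4 were lower, and 22 did not pass. Over all 5656 genes, shown by 1 probe set each, 19.6% were called higher and 15.2% lower, against 33.3% and 10.3% of the members. All Upf1p-TAP arrays lay above all mock arrays for 12 members, against 16.1% of all genes, and below them for 3, against 13.1%. All 4 pair ratios were above 0 for 19 members and below 0 for 6, against 1592 and 1412 of all 5656 genes. Over all 9275 probe sets the called shares were 17.7% and 13.5%. The members' median ratio was 0.33, against 0.03 over all genes. Members were dimmer than genes in general, with a median mock mean of 56.7 against 114 over all genes. The shares above are not matched for signal, and whether signal level accounts for their difference was not tested. After median centring 10 members were higher and 6 lower, so that higher genes made up 62.5% of the member calls in place of 76.5%. Over all probe sets that share was 42.7% after centring in place of 56.8%. After quantile normalization the counts were 10 and 6 as well, so 62.5% of member calls were higher, against 49.6% over all probe sets. In that setting 25.6% of the members and 15.5% of all probe sets were called higher. Members are counted as genes, and the share of all probe sets called higher was the smaller base in the main fit (17.7%, against 19.6% of genes).

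The 27 PEX genes and the 12 enzymes, transporters and regulators had the same share of higher calls, 9 of 27 and 4 of 12, which is 33.3% in each. All 4 lower genes, PEX14, PEX15, PEX19 and PEX30, were PEX genes, and 0 of the other 12 were called lower. The lower share of PEX genes, 14.8%, was close to the 15.2% of all genes. With 12 genes, a count of 0 cannot be told from that share. That count of 0 depended on the scaling, since TES1 and ANT1 were called lower after quantile normalization and after median centring, and TES1 with the filter on dim probe sets. At an unadjusted p below 0.05 the same 2 genes were lower. The median ratio was 0.27 for PEX genes and 0.53 for the others, and whether these differ was not tested. In pairs 1 to 4 the median was 0.26, 0.18, 0.39 and 0.26 for PEX genes and 0.46, 0.58, 0.85 and 0.05 for the others. The order of the 2 medians was thus reversed in pair 4.

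**Figure D1:**
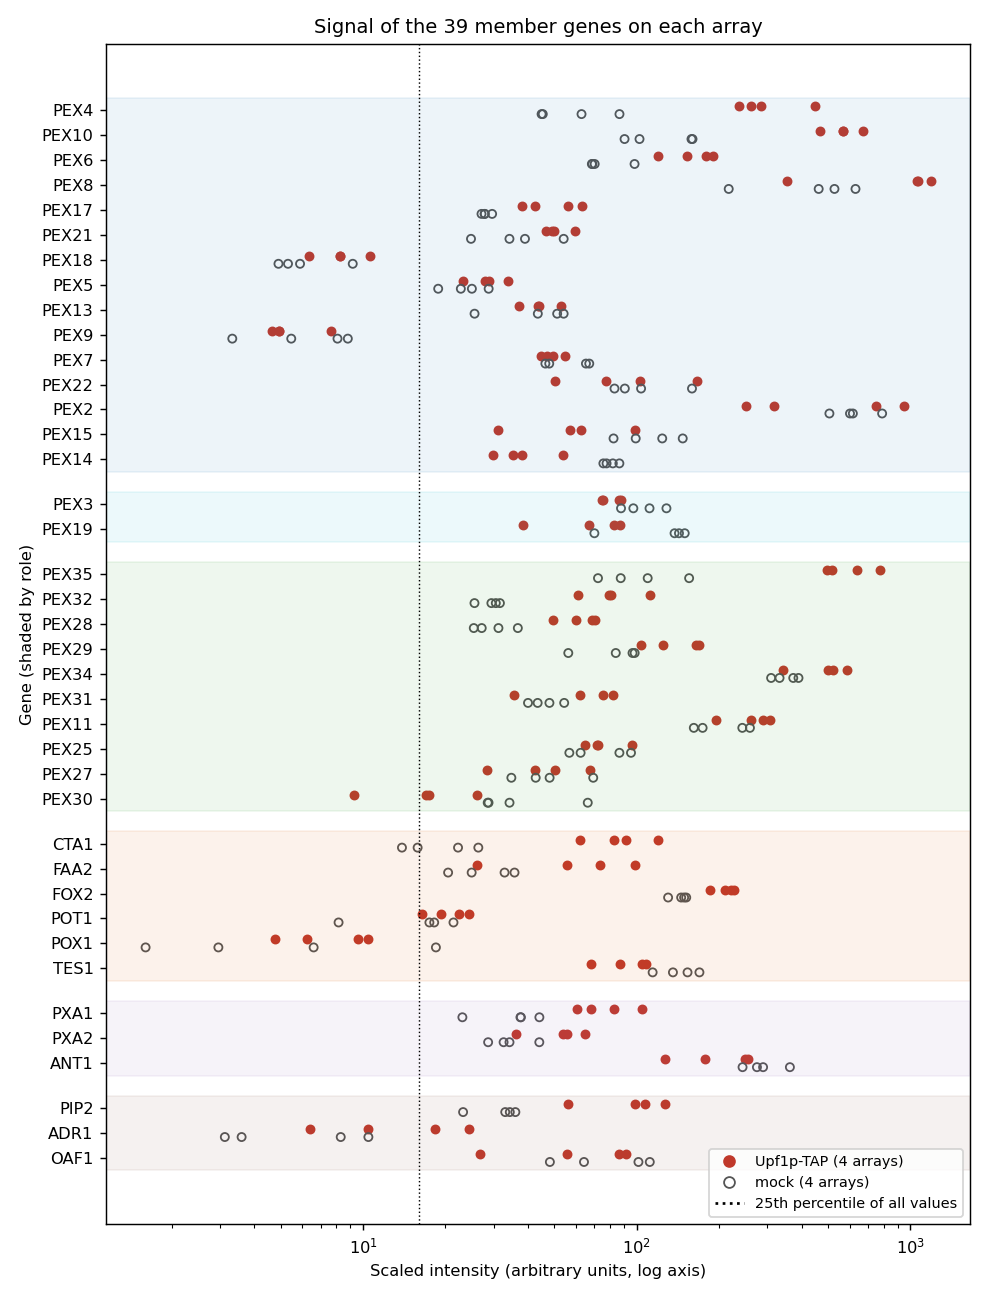
Scaled intensity of each member gene (log axis) on the 4 Upf1p-TAP arrays (filled) and the 4 mock arrays (open), with genes shaded by role and the dotted line at the 25th percentile of all values, 16.0. PEX35, PEX4, PEX10 and CTA1 show the widest separation, and POX1, PEX9, PEX18 and ADR1 have means left of the line in both groups.

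Among genes for the import of matrix proteins, the ubiquitin step held the members with the highest ratios. PEX4 encodes the ubiquitin-conjugating enzyme that marks the import receptors. Its probe set read 237, 284, 447 and 262 on the Upf1p-TAP arrays, against 44.9, 86.5, 62.9 and 45.4 on the mock arrays, in the order of replicates 1 to 4. The groups did not overlap, and the ratio was 2.29 (SE 0.23, adjusted p = 1.51e-04), a fold of 4.88. PEX22, which anchors that enzyme at the membrane, read 165, 103, 50.1 and 77.4 on the Upf1p-TAP arrays, against 159, 104, 90.5 and 83.0 on the mock arrays. Its groups overlapped, with Upf1p-TAP arrays both above and below the mock range, and the ratio was -0.21 (95% interval -0.72 to 0.29, adjusted p = 0.504).

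PEX10 encodes a RING protein of the ubiquitin ligase that acts on the receptors. It read 568, 673, 466 and 569 on the Upf1p-TAP arrays, against 159, 159.9, 90.3 and 102 on the mock arrays. The lowest Upf1p-TAP array lay above the highest mock array, and the ratio was 2.15 (SE 0.20, adjusted p = 1.01e-04). PEX2, a second RING protein of the ligase, read 947, 748, 318 and 252 on the Upf1p-TAP arrays, against 788, 616, 602 and 506 on the mock arrays. Its Upf1p-TAP arrays split, with replicates 1 and 2 above their mock partners and replicates 3 and 4 below, and the ratio was -0.34 (95% interval -0.93 to 0.25, adjusted p = 0.358).

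The export motor gave opposite calls for an ATPase and its anchor. PEX6, an AAA ATPase that pulls ubiquitinated receptors from the membrane, read 189.9, 178, 153 and 119 on the Upf1p-TAP arrays, against 70.2, 68.9, 98.2 and 68.6 on the mock arrays. It was higher at 1.02 (SE 0.22, adjusted p = 0.00767), with no overlap. PEX15, the membrane anchor of this ATPase, read 98.2, 62.5, 31.1 and 57.1 on the Upf1p-TAP arrays, against 147, 124, 82.3 and 99.2 on the mock arrays. It was lower in each of the 4 pairs at -0.89 (SE 0.21, adjusted p = 0.0128), although Upf1p-TAP replicate 1 lay above mock replicate 3. Fitted without the pair as a block, PEX15 missed the threshold (adjusted p = 0.0604).

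In the docking complex the calls were split too. PEX14, its central subunit, read 54.0, 35.3, 29.9 and 38.0 on the Upf1p-TAP arrays, against 86.4, 81.8, 75.6 and 77.6 on the mock arrays. All Upf1p-TAP arrays lay below all mock arrays, and the ratio was -0.99 (SE 0.21, adjusted p = 0.00755). PEX17, a peripheral subunit of the complex in yeast, read 42.5, 63.2, 56.3 and 38.1 on the Upf1p-TAP arrays, against 27.9, 27.1, 29.6 and 27.8 on the mock arrays. The groups did not overlap and PEX17 was higher at 0.72 (SE 0.22, adjusted p = 0.0343), but leaving out any 1 pair ended the call, with adjusted p between 0.0644 (without replicate 1) and 0.148 (without replicate 2). PEX17 was also not called after quantile normalization (adjusted p = 0.0692) or median centring (adjusted p = 0.0760). PEX13, the SH3-domain subunit, ranged over 37.2 to 52.8 on the Upf1p-TAP arrays and 25.6 to 54.1 on the mock arrays. It did not pass, at 0.06 (95% interval -0.43 to 0.56). PEX8, a protein of the inner face of the membrane that links docking and ligase complexes, read 355, 1067, 1191 and 1058 on the Upf1p-TAP arrays, against 217, 630.0, 528 and 462 on the mock arrays. Replicate 1 was low in both groups, so the groups overlapped while each pair moved the same way, at 0.95 (SE 0.18, adjusted p = 0.00444). With no block for the pair, PEX8 missed the threshold (adjusted p = 0.106).

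Of the 5 receptor and co-receptor genes limma called 0, and 0 had an unadjusted p below 0.05. Over all genes 34.9% were called, and 5 genes are too few to set a count of 0 apart from that share. PEX5, the receptor for the common carboxy-terminal signal, read 28.0, 28.9, 33.8 and 23.3 on the Upf1p-TAP arrays, against 22.8, 25.0, 28.8 and 18.8 on the mock arrays. Its ratio was 0.22 (95% interval -0.24 to 0.69, adjusted p = 0.447), and the arrays overlapped. PEX7, the receptor for the amino-terminal signal, ranged over 44.8 to 54.9 on the Upf1p-TAP arrays and 46.4 to 67.1 on the mock arrays, at -0.18 (95% interval -0.65 to 0.29). Its co-receptor gene PEX21 ranged over 46.7 to 59.5 on the Upf1p-TAP arrays and 24.8 to 54.1 on the mock arrays, at 0.43 (95% interval -0.07 to 0.93), with all 4 pairs above 0. PEX18, the other co-receptor gene, ranged over 6.37 to 10.6 on the Upf1p-TAP arrays and 4.91 to 9.17 on the mock arrays, at 0.27. PEX9, a receptor of oleate-grown yeast, ranged over 4.66 to 7.64 on the Upf1p-TAP arrays and 3.33 to 8.80 on the mock arrays, at -0.10. Both groups' means of PEX9 and PEX18 were below 16.0, which is the 25th percentile over the whole table, so a change there would be hard to see.

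Both genes for inserting membrane proteins had ratios below 0 in 4 of 4 pairs, as did 1412 of all 5656 genes. A set of 2 genes is too small to be told from that share. PEX19, the chaperone that carries membrane proteins to the organelle, read 86.6, 82.3, 67.2 and 38.3 on the Upf1p-TAP arrays, against 149.8, 143, 137 and 70.0 on the mock arrays. Replicate 4 was the lowest of both groups, and Upf1p-TAP replicates 1 and 2 lay above it in the mock, so the groups overlapped. PEX19 was lower at -0.83 (SE 0.20, adjusted p = 0.0119) and missed the threshold with no block for the pair (adjusted p = 0.0731). PEX3, its docking receptor in the membrane, read 74.6, 86.4, 75.0 and 87.8 on the Upf1p-TAP arrays, against 128, 111, 87.6 and 97.2 on the mock arrays. It did not pass, at -0.36 (95% interval -0.83 to 0.10, adjusted p = 0.218).

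Genes that set the number and size of peroxisomes and their contacts with the endoplasmic reticulum gave 4 higher and 1 lower of 10. These shares, 40% and 10%, stand against 19.6% and 15.2% of all genes, and rest on few genes. PEX35, whose product is a membrane protein that affects peroxisome abundance, had the highest ratio of all 39 members. Its probe set read 496, 516, 771 and 636 on the Upf1p-TAP arrays, against 72.2, 155, 109.7 and 87.4 on the mock arrays. The groups stood far apart, at 2.50 (SE 0.23, adjusted p = 1.11e-04), a fold of 5.65. PEX34, which acts with the PEX11 group, ranged over 342 to 585 on the Upf1p-TAP arrays and 309.8 to 390.0 on the mock arrays. Each pair was above 0, by only 0.04 in pair 4, and at 0.45 PEX34 did not pass (95% interval -0.01 to 0.90, adjusted p = 0.122).

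The 5 genes PEX28 to PEX32 encode related membrane proteins that control peroxisome size and number. PEX32 read 60.9, 80.4, 112 and 79.1 on the Upf1p-TAP arrays, against 29.5, 30.6, 31.6 and 25.5 on the mock arrays, with no overlap and a ratio of 1.36 (SE 0.22, adjusted p = 0.00198). PEX28 read 59.8, 49.6, 68.4 and 70.6 on the Upf1p-TAP arrays, against 25.4, 31.3, 27.2 and 36.8 on the mock arrays, again with no overlap, at 0.95 (SE 0.22, adjusted p = 0.00976). The call of a further relative, PEX29, was less firm. PEX29 read 104, 165, 169 and 125 on the Upf1p-TAP arrays, against 96.5, 98.3, 83.9 and 56.2 on the mock arrays, at 0.72 (SE 0.23, adjusted p = 0.0389). Its call ended without replicate 2, 3 or 4 (adjusted p between 0.103 and 0.163), without the pair block (0.0590), after quantile normalization (0.0726) and after median centring (0.0720). PEX30 went the other way and read 26.2, 17.4, 9.28 and 16.9 on the Upf1p-TAP arrays, against 66.2, 28.6, 28.8 and 34.3 on the mock arrays. Every Upf1p-TAP array lay below every mock array, and the ratio was -0.996 (SE 0.23, adjusted p = 0.00955), although Upf1p-TAP values this close to the 25th percentile leave its size dependent on the offset (-1.18 with none, -0.70 with the higher one, 16.0). PEX31 ranged over 35.7 to 82.0 on the Upf1p-TAP arrays and 40.1 to 54.3 on the mock arrays and did not pass, at 0.38 (95% interval -0.19 to 0.94).

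PEX11, PEX25 and PEX27 encode the proteins that elongate the membrane before division. PEX11 read 194, 306, 262 and 290.1 on the Upf1p-TAP arrays, against 174, 243, 259 and 162 on the mock arrays. It was above its mock partner in 4 of 4 pairs, with pair ratios of 0.15, 0.33, 0.02 and 0.83. The mean of 0.33 did not pass (95% interval -0.13 to 0.80, adjusted p = 0.259). PEX25 ranged over 64.5 to 96.2 on the Upf1p-TAP arrays and 56.7 to 95.3 on the mock arrays, at 0.03 (95% interval -0.45 to 0.51). PEX27 ranged over 28.5 to 67.4 on the Upf1p-TAP arrays and 34.8 to 69.4 on the mock arrays, at -0.06 (95% interval -0.56 to 0.44). The arrays of both genes overlapped, and neither passed.

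**Figure D2:**
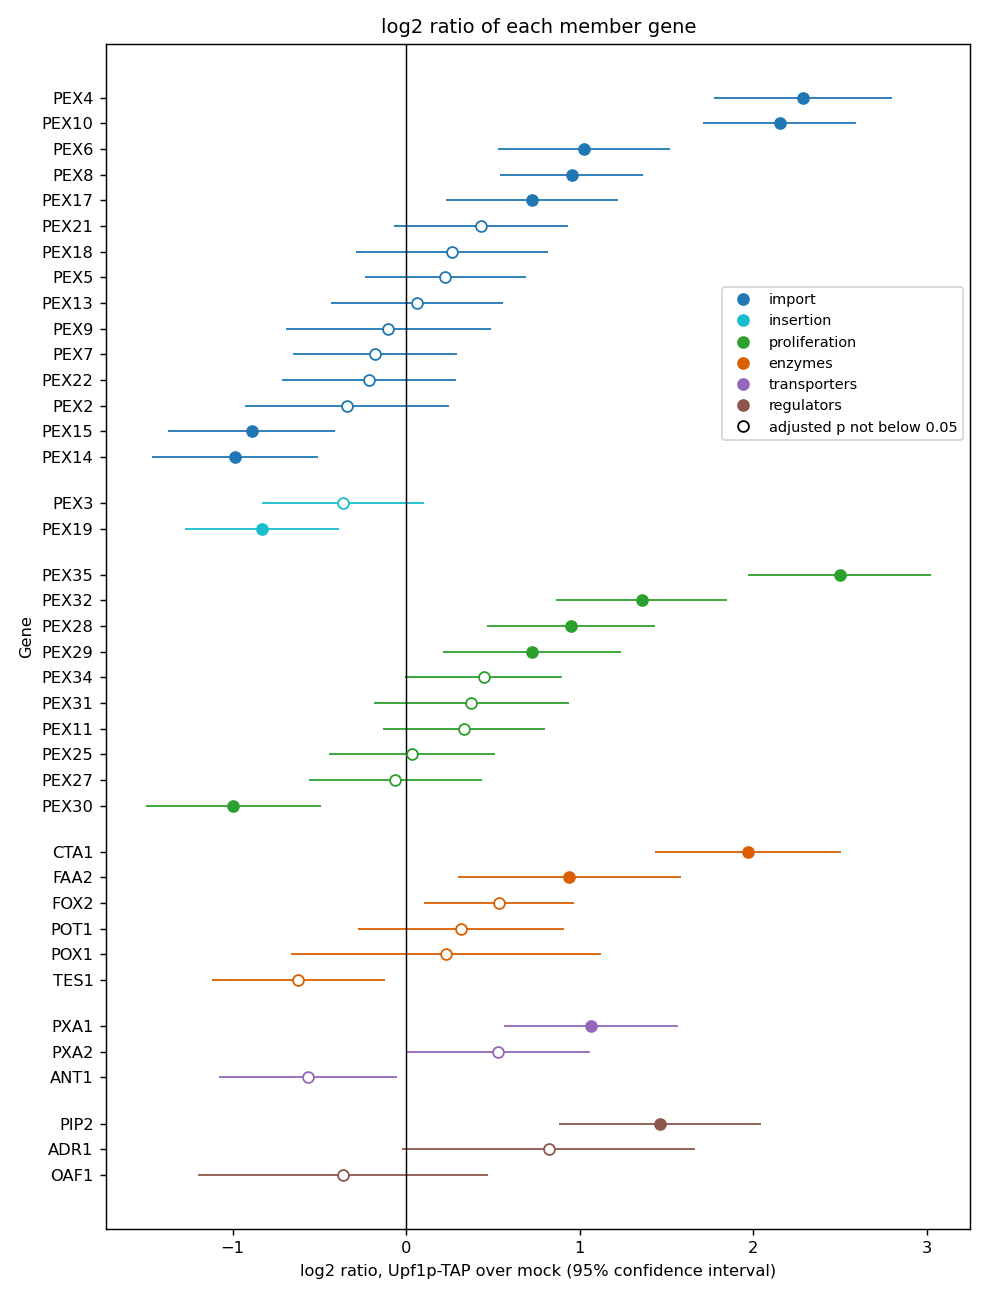
log2 ratio of Upf1p-TAP over mock for each member gene, by role, with 95% confidence intervals that are not adjusted for the number of genes tested. Filled points are the 17 genes with adjusted p below 0.05, from PEX35 at 2.50 down to PEX30 at -0.996, and open points are the other 22.

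Of the 6 matrix enzyme genes, CTA1 and FAA2 were higher, a share of 33.3% against 19.6% of all genes. CTA1 encodes catalase A, which destroys the hydrogen peroxide that acyl-CoA oxidase makes. It read 62.1, 82.3, 119.5 and 91.4 on the Upf1p-TAP arrays, against 13.9, 22.2, 15.8 and 26.4 on the mock arrays. No array overlapped, and the ratio was 1.97 (SE 0.24, adjusted p = 4.52e-04), a fold of 3.92. FAA2, the acyl-CoA synthetase that activates medium-chain fatty acids, read 26.0, 55.7, 98.3 and 73.2 on the Upf1p-TAP arrays, against 24.9, 32.9, 35.8 and 20.5 on the mock arrays. Replicate 1 hardly differed between the groups, and FAA2 passed at 0.94 (SE 0.29, adjusted p = 0.0334). That call ended without replicate 2, 3 or 4 (adjusted p between 0.0639 and 0.157), without the pair block (0.0677), after quantile normalization (0.0697) and after median centring (0.0510).

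The 3 enzymes of the beta-oxidation spiral itself did not pass. FOX2, which holds the hydratase and dehydrogenase steps, read 185, 210.5, 221 and 227 on the Upf1p-TAP arrays, against 145, 152, 149 and 130.2 on the mock arrays. Its arrays did not overlap, yet the ratio of 0.53 (95% interval 0.10 to 0.97) missed the threshold at adjusted p = 0.0621, and passed it (0.0407) when dim probe sets were left out of the test. POT1, the thiolase of the last step, read 22.4, 16.5, 24.3 and 19.2 on the Upf1p-TAP arrays, against 8.14, 18.2, 17.5 and 21.4 on the mock arrays, at 0.32 (95% interval -0.28 to 0.91, adjusted p = 0.405). On the probe set shown, POX1, the acyl-CoA oxidase of the first step, read 9.57, 6.25, 10.4 and 4.79 on the Upf1p-TAP arrays, against 1.61, 6.60, 2.96 and 18.5 on the mock arrays. The arrays of both groups mixed, and the ratio was 0.23 (95% interval -0.66 to 1.12, adjusted p = 0.705), falling below 0 without replicate 1 (-0.12) or replicate 3 (-0.04). The other 3 POX1 probe sets were at 0.51, 0.31 and 0.28 and not called, and the mean of every POX1 probe set lay below 16.0 in both groups. TES1, a peroxisomal acyl-CoA thioesterase, read 108, 105, 86.9 and 68.2 on the Upf1p-TAP arrays, against 153, 114, 169 and 136 on the mock arrays. Its groups did not overlap and its ratio was below 0 in 4 of 4 pairs, but at -0.62 it missed the threshold (adjusted p = 0.0589).

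Among the transporters, PXA1 was higher. PXA1 and PXA2 form the ABC transporter that brings long-chain acyl-CoA into the peroxisome. PXA1 read 68.2, 82.3, 105 and 60.3 on the Upf1p-TAP arrays, against 44.1, 37.7, 37.6 and 23.1 on the mock arrays, with no overlap, at 1.06 (SE 0.22, adjusted p = 0.00670). PXA2 read 64.8, 55.7, 53.8 and 36.1 on the Upf1p-TAP arrays, against 28.7, 44.1, 32.6 and 34.3 on the mock arrays. It lay above the mock in 4 of 4 pairs, by only 0.07 in pair 4, and did not pass, at 0.53 (95% interval -0.00 to 1.06, adjusted p = 0.120). ANT1, the carrier that brings ATP in for fatty acid activation, ranged over 127 to 254 on the Upf1p-TAP arrays and 244 to 363 on the mock arrays. It lay below the mock in 3 of 4 pairs, at -0.57 (95% interval -1.08 to -0.05, adjusted p = 0.0882).

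The regulators PIP2 and OAF1 form 1 oleate-activated transcription factor. PIP2 read 56.2, 108, 127 and 98.5 on the Upf1p-TAP arrays, against 34.4, 23.2, 36.0 and 33.1 on the mock arrays. Its groups did not overlap, and it was higher at 1.46 (SE 0.26, adjusted p = 0.00305). OAF1 read 91.5, 86.2, 26.8 and 55.5 on the Upf1p-TAP arrays, against 101, 48.2, 112 and 64.2 on the mock arrays. The groups overlapped widely, with pair ratios of -0.14, 0.79, -1.91 and -0.20, a mean of -0.36 (95% interval -1.20 to 0.47, adjusted p = 0.498). Without replicate 3 the OAF1 ratio was 0.15. ADR1, the activator of glucose-repressed genes, read 6.39, 18.4, 24.4 and 10.4 on the Upf1p-TAP arrays, against 8.29, 3.60, 3.13 and 10.5 on the mock arrays. Its mean was below 16.0 in both groups, pairs 2 and 3 lay above 0 and pairs 1 and 4 below, and the ratio of 0.82 did not pass (adjusted p = 0.127).

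Genes whose products work together were then compared within each pair, as the difference between their ratios. The 13 combinations were set out with the ratios above already known, and several share a gene, so they describe the contrasts and are not independent. PEX4 exceeded PEX22 by 2.50 ± 0.78 (SD over 4 pairs, range 1.69 to 3.56). PEX10 exceeded PEX2 by 2.49 ± 0.97 (SD over 4 pairs, range 1.55 to 3.42). PEX6 exceeded PEX15 by 1.91 ± 0.30 (SD over 4 pairs, range 1.52 to 2.27). Each of these differences had 1 sign in 4 of 4 pairs.

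In the docking complex PEX17 exceeded PEX14 by 1.71 ± 0.52 (SD over 4 pairs, range 1.19 to 2.23), and PEX13 exceeded PEX14 by 1.05 ± 0.11 (SD over 4 pairs, range 0.96 to 1.17), the narrowest spread of the 13. Of the family on the endoplasmic reticulum, PEX32 exceeded PEX30 by 2.35 ± 0.47 (SD over 4 pairs, range 1.89 to 3.00) and PEX31 by 0.98 ± 0.24 (SD over 4 pairs, range 0.84 to 1.34). PEX28 exceeded PEX30 by 1.95 ± 0.59 (SD over 4 pairs, range 1.20 to 2.51) and PEX29 did so by 1.72 ± 0.48 (SD over 4 pairs, range 1.32 to 2.28). PIP2 exceeded OAF1 by 1.83 ± 1.25 (SD over 4 pairs, range 0.79 to 3.62), widest in pair 3. PEX19 minus PEX3 was -0.47 ± 0.34 (SD over 4 pairs, range -0.78 to -0.01). The sign was mixed for PXA1 minus PXA2, at 0.54 ± 0.72 (SD over 4 pairs, range -0.49 to 1.18), and for PEX21 minus PEX18, at 0.17 ± 0.48 (SD over 4 pairs, range -0.47 to 0.59). An exact two-sided sign-flip permutation test over 4 pairs cannot go below p = 0.125, and the 11 differences of 1 sign all had that value (0.148 after Benjamini-Hochberg adjustment over 13), so none could pass the threshold.

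**Figure D3:**
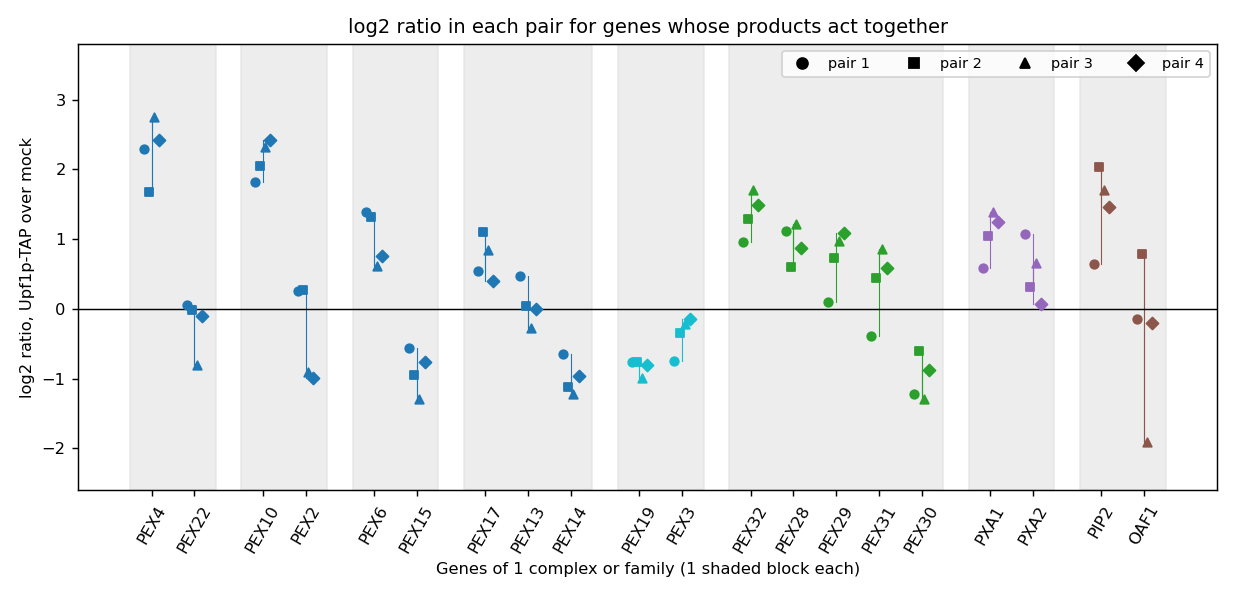
log2 ratio of Upf1p-TAP over mock in each of the 4 pairs (marker shape) for genes of 1 complex or family, each set in a shaded block. PEX4, PEX10, PEX6 and PIP2 lie above their partner in every pair, and PEX30 lies below its 4 relatives in every pair.

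Coding length, which the choice of members did not use, had a median of 1242 bases over the 39 genes and 1250 over 5486 protein-coding genes (from the RefSeq gene table). The 13 higher members ranged from 552 to 3093 bases with a median of 1665, the 4 lower from 1026 to 1572 with a median of 1091, and the 22 others from 435 to 3972 with a median of 1173. Across the 39 genes Spearman's rho between ratio and coding length was 0.23, against -0.02 over protein-coding genes. Over the 27 PEX genes alone it was 0.04. Median coding length was 1131 bases for PEX genes and 2404.5 for the 12 enzymes, transporters and regulators. The rho of each pair's ratio with the mock level of the other pairs lay between -0.35 and -0.07 for members and between -0.33 and -0.21 for protein-coding genes. These correlations are across genes, which share the arrays and are not replicates. The median signal of the 39 genes lay between 64.5 and 82.3 on the Upf1p-TAP arrays and between 45.4 and 65.2 on the mock arrays. Among all 5656 genes these medians stood at percentiles 34.5 to 37.0 on the Upf1p-TAP arrays and 29.6 to 34.5 on the mock arrays. In both groups 4 genes (POX1, PEX9, PEX18 and ADR1) averaged under 16.0. No 2 members are immediate neighbours in the gene table, and FAA2 alone overlaps another annotated gene, BUD25.

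Further genes of the pathway, 40 in all, gave 8 higher and 4 lower, with a median ratio of -0.04. The share of higher genes, 20%, was close to the 19.6% of all genes, and the share of lower genes was 10%, against 15.2%. The peroxisomal lipase gene LPX1 read 1822, 2824, 2808 and 2812 on the Upf1p-TAP arrays, against 227, 369, 305 and 263 on the mock arrays, at 3.12 (SE 0.17, adjusted p = 2.18e-05). GTO1 (1.4985), a glutathione transferase, CAT2 (1.33), a carnitine acetyltransferase, and ECI1 (0.73), the isomerase for unsaturated fatty acids, were the other higher genes of 16 further peroxisomal enzymes. These 16 gave 4 higher and 3 lower (CIT2, FAT1 and GPD1). The shares, 25% and 18.8%, stand against 19.6% and 15.2% of all genes, and the median ratio of the 16 was -0.11.

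Outside the organelle, ICL1, the isocitrate lyase of the glyoxylate cycle, read 262, 371, 482 and 282 on the Upf1p-TAP arrays, against 62.6, 71.8, 55.0 and 60.4 on the mock arrays, at 2.37 (SE 0.23, adjusted p = 1.25e-04). The mitochondrial carnitine carrier gene CRC1 (1.47) and the carnitine acetyltransferase gene YAT2 (1.28) were higher too. These were 3 of the 8 genes listed for the glyoxylate cycle and carnitine shuttle outside peroxisomes, or 37.5%, against 19.6% of all genes. FAA3 (0.75), an acyl-CoA synthetase gene listed under fatty acid activation, was the last of the 8 higher further genes. FAA1 (-0.40) and FAA4 (-0.00) did not pass. The calls of FAA3 (highest adjusted p = 0.118) and ECI1 (0.100) ended when 1 pair was left out, FAA3 without replicate 2, 3 or 4 and ECI1 without replicate 1, 2 or 4. FAA3 also lost its call without the pair block, after quantile normalization and after median centring, and ECI1 after median centring.

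The 4 lower genes were CIT2 (-0.97), the peroxisomal citrate synthase, FAT1 (-0.67), which activates very long-chain fatty acids, GPD1 (-0.57), a glycerol-3-phosphate dehydrogenase, and DNM1 (-0.86), the dynamin-related protein of organelle division. None of these 4 kept its call through every omission of a pair. CIT2 lost it without replicate 1 or 3, FAT1 without any 1 of the 4, GPD1 without replicate 1, 2 or 4 and DNM1 without replicate 1, 3 or 4, with highest adjusted p of 0.127, 0.140, 0.104 and 0.108. FAT1 also lost its call without an offset and GPD1 without the intensity trend. DNM1 was the 1 called gene of 8 for division and inheritance. Of 5 further regulators (CAT8, OAF3, MIG1, SNF4 and SNF1) limma called 0, with 0 at an unadjusted p below 0.05. Over all genes 34.9% were called, and both sets are small.

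**Figure D4:**
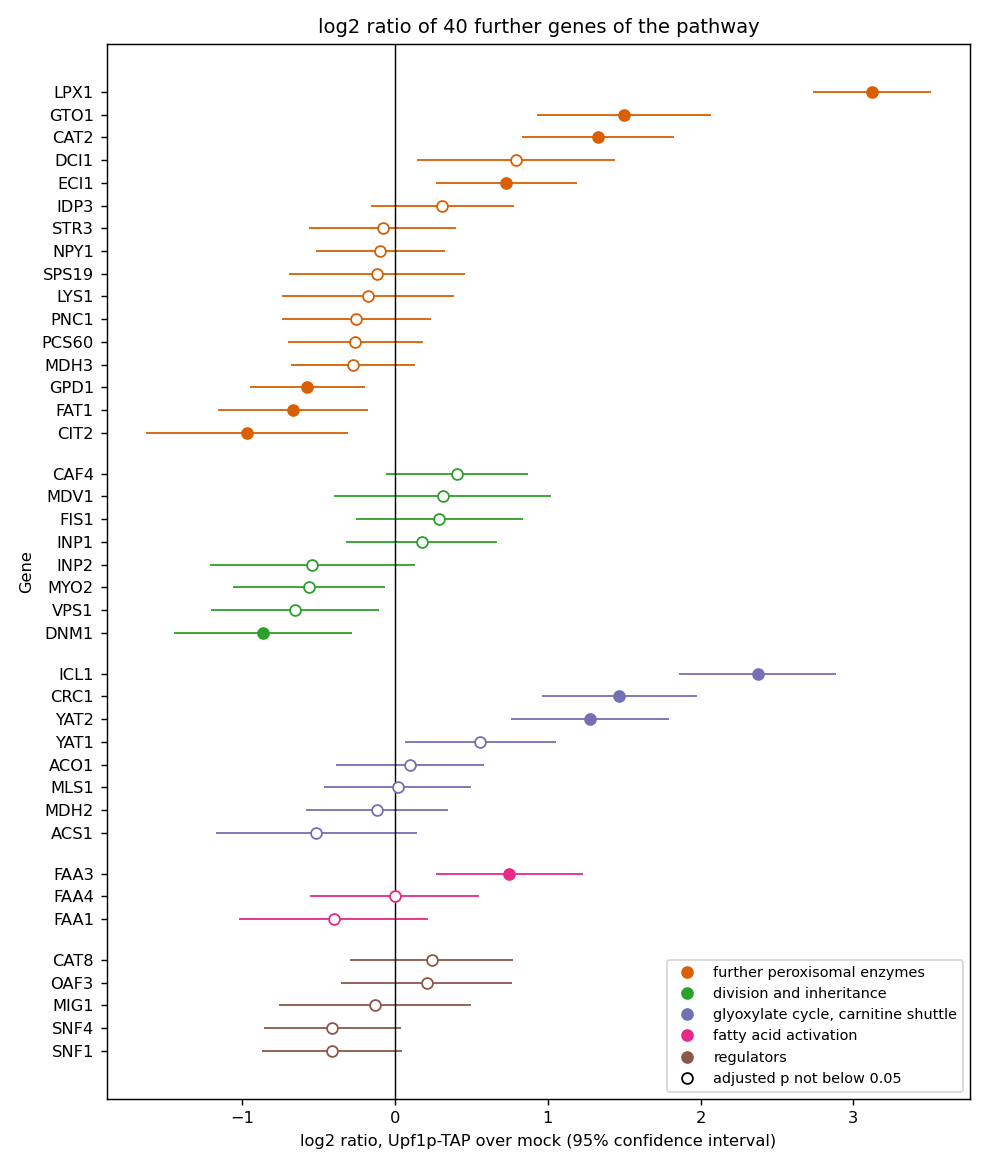
log2 ratio of Upf1p-TAP over mock for 40 further genes of the pathway by role, with 95% confidence intervals not adjusted for the number of genes tested. Filled points are the 12 genes with adjusted p below 0.05, with LPX1 (3.12) and ICL1 (2.37) farthest to the right and CIT2 (-0.97) farthest to the left.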

How the data were processed

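RNA of 4 Upf1p-TAP and 4 mock selections was hybridized to Affymetrix Yeast Genome S98 arrays. The authors deposited 1 table of linear intensity values for 9335 probe sets, made with GCOS per the submitters' processing notes, which give no version. The deposited intensities had been scaled, since the mean of every array trimmed by 2% at each end lay between 250.2 and 250.3. Control probe sets (60) were left out. The platform annotation gave 1 gene for 6504 probe sets, several for 328 and none for 2443, and symbols were updated through RefSeq. A gene with several probe sets is shown by a plain one before one marked for shared sequence, then by the brightest.

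limma 3.58.1 in R 4.3.3 fitted log2(intensity + 4.09), where 4.09 is the 10th percentile of the tested values, with the pair as a block and an intensity trend. The fit was tested on simulated data. Their noise was drawn independently for each probe set and array, so that test cannot check shifts shared by a whole array. The design text speaks of independent pairs. Deviations from group means over 4637 brighter probe sets correlated at 0.18 to 0.55 between arrays of the same number and at -0.54 to 0.35 otherwise. Whether each pair came from its own cultures is not stated in the labels, so the p-values cover only the spread among these arrays. The number of arrays limits the precision. Alternatives changed the block, offset, scaling, filter, trend, probe set rule and the pairs used. The members and lists were chosen with earlier results of these data known. Values in every array are given for each called member and for POX1, FOX2, POT1, CTA1, FAA2, PEX3, PEX5, PEX19, PEX11, OAF1, PIP2 and ADR1, and of further pathway genes the called ones are named. PEX2, PEX22, TES1, PXA2, LPX1 and ICL1 are given in full, and some uncalled genes are named, after their values were seen.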

Additional observations from a re-analysis of the deposited data

Results flagged for a closer look

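Of 78 sets of 4 arrays (39 genes in each group), 4 held an array that stood apart from the other 3 by Dixon's criterion, and chance alone gives about 1 in 20. PEX8 read 355 on Upf1p-TAP replicate 1, against 1058 to 1191 on the other Upf1p-TAP arrays, and mock replicate 1 was low as well. PEX19 read 70.0 on mock replicate 4, against 137 to 149.8 on the other mock arrays. PEX6 read 98.2 on mock replicate 3, against 68.6 to 70.2 on the other mock arrays. PEX9 read 7.64 on Upf1p-TAP replicate 3, against 4.66 to 4.95 on the other Upf1p-TAP arrays, all of them dim. The calls of PEX8, PEX19 and PEX6 held without the pair concerned.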

How the results depend on the processing

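Of the 17 called members, 11 kept their call under every alternative in which they were tested, namely PEX35, PEX4, PEX10, CTA1, PIP2, PEX32, PXA1, PEX6, PEX28, PEX14 and PEX30. PEX28 and PEX30 were not tested with the filter on dim probe sets, which left 23 of the 39 members. The others, PEX8, PEX15, PEX19, PEX17, PEX29 and FAA2, lost it under at least 1 setting, as given above. Without the pair block, 10 members were higher and 2 lower, with 2 PEX genes lower. Over all probe sets that setting gave 1340 higher and 931 lower. The higher share was 25.6% of the members, counted as genes, and 14.4% of all probe sets, which include those with no gene. Leaving out 1 pair gave 10 to 12 higher and 4 lower. The median ratio of all members became 0.19 after median centring. That of PEX genes became 0.16 with the higher offset (the 25th percentile), 0.12 after median centring and 0.39 with the filter, and lay between 0.17 and 0.33 when 1 pair was left out. Enzymes, transporters and regulators gave 2 lower after quantile normalization, 2 after median centring and 1 with the filter. Further pathway genes gave 7 lower after quantile normalization, 7 after median centring and 2 with the filter, and 0 to 2 when 1 pair was left out. Over all probe sets, leaving out 1 pair gave 1076 to 1384 higher and 775 to 953 lower. When 1 pair was left out the POX1 ratio lay between -0.12 (replicate 1) and 0.75 (replicate 4), with -0.04 for replicate 3. The OAF1 ratio lay between -0.75 (replicate 2) and 0.15 (replicate 3). Probe sets near the 25th percentile limit what POX1, PEX9, PEX18 and ADR1 can show.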
